A study of Mus musculus with 148 samples.

Results

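Lungs of mice that stayed free of metastases after removal of a breast tumor were compared with lesion-free tissue from the lungs of mice that had metastases. The members are the immune cells of the 14 plates with the status relapse-free and no GFP gate, which came from 6 mice, and of the 28 plates with the status distal normal tissue, which came from 14 mice. They were 2904 and 3974 cells that the authors had annotated as an immune lineage, of 23425 such cells in the series. Female PA-GFP C57BL/6 mice, which carry a photoactivatable green fluorescent protein, received EO771-tdTomato mammary carcinoma cells in an inguinal mammary gland at 8 weeks of age, the tumor was resected 3 weeks later, and the lungs were imaged until metastases appeared. The labels give all 20 mice this genotype, the injected tumor and its resection, and mark these plates as taken without photoactivation. Relapse-free mice 6 and 7 also gave GFP-gated plates, and the study's text describes its photoactivation test as done on lungs of control mice, so it is uncertain whether these 2 mice had carried a tumor. Relapse-free lungs never developed metastases, and distal normal tissue showed no tdTomato signal under the microscope, although tumor cells that had lost the fluorophore could not be seen in this way. Viable CD31-CD45+ cells (leukocytes, without endothelium) were sorted into multiwell plates and their transcripts were counted as unique molecular identifiers (UMIs). Lungs of 3 control mice, with the status normal and from a sequencing batch shared with neither group, are given beside both groups as background. The study took its control lungs from PA-GFP mice and counts control samples among those of mice bearing neither tumor nor metastasis.

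All relapse-free plates were labelled whole lungs and all distal normal plates lung section, so this difference in sampling and the difference between the groups cannot be told apart. A share is a percentage of the annotated immune cells of a mouse, so fewer cells of one lineage and more cells of another cannot be told apart either. Sequencing batches were shared by the groups for relapse-free mouse 18 with distal normal mouse 17, for mouse 29 with 7 distal normal mice and for mouse 35 with mice 36 and 37, whereas the batches of relapse-free mice 6, 7 and 11 and of distal normal mice 31 to 34 held 1 group each. The mouse was the replicate throughout.

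Relapse-free mice had 148 to 743 annotated immune cells each and distal normal mice 74 to 752. The median UMI count per cell ranged from 691 to 1946 and from 682 to 2743.5 (mean of the mice 1275 ± 442 SD, n = 6, and 1030 ± 568, n = 14; exact two-sided permutation test, p = 0.382). The median mitochondrial share of UMIs was 2.86% ± 0.287 in relapse-free mice, 2.10% ± 0.428 in distal normal mice and 3.23% ± 0.0474 in control mice, and the first pair differed (exact permutation test, p = 0.00124). The median was taken over all immune cells of a mouse, so it can also follow the mix of lineages. The part of that mix was not tested. No well identifier occurred on more than 1 plate. Of 23 lineage markers, 22 in relapse-free and 23 in distal normal cells were highest, in CPM of the summed lineage (counts per 1000000 UMIs), in the lineage they mark, the exception being Xcr1, at 0 CPM in DCs and highest in NK cells of relapse-free lungs. Cells annotated as tumor numbered 1 in relapse-free mouse 6 and 1 in distal normal mouse 36.

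Lung leukocytes include resident alveolar macrophages and cells that arrive with the blood. Classical monocytes, which carry Ly6C and enter inflamed tissue, give rise to nonclassical monocytes, which patrol the vessel wall and express angiotensin-converting enzyme (Ace). T, NK and B lymphocytes make up much of the leukocyte pool of a healthy mouse lung, and neutrophils are recruited from the bone marrow when the lung is inflamed or bears tumor.

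Monocytes took a larger share of the immune cells in distal normal tissue than in relapse-free lungs, and T, NK and B cells a smaller one. Of the 7 lineages compared, 57.1% (4 of 7) passed an adjusted p of 0.05 in an exact two-sided permutation test over mice, with Benjamini-Hochberg adjustment over the 7. DCs, macrophages and neutrophils did not pass.

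Monocyte shares lay between 16.9% and 26.1% in the 6 relapse-free mice, with a median of 19.3%. In the 14 distal normal mice they ran from 13.1% to 71.3%, with a median of 38.3%. Of the distal normal mice, 11 of 14 lay above every relapse-free mouse, while mouse 37 lay below them all. The means were 20.2% ± 3.36 (SD, n = 6) and 36.9% ± 15.4 (n = 14), a 1.83-fold ratio, beside 17.9% ± 1.08 in 3 control lungs (exact permutation test, p = 0.0169, adjusted p = 0.0385). Within the shared batches the gap was 22.6 percentage points for mouse 29 against 7 mice, 2.14 for mouse 18 against mouse 17, and -1.27 for mouse 35 against mice 36 and 37, so the pooled difference did not hold in each batch. Permuted within these batches, the monocyte share gave p = 0.188 and did not pass (exact permutation test, adjusted p = 0.316). Neutrophils took 54.9%, 54.6%, 14.3% and 75.0% of the cells in distal normal mice 17, 26, 36 and 37, and monocytes 23.7%, 28.1%, 18.2% and 13.1%. With neutrophils left out of the denominator, an alternative chosen after seeing the data, monocytes made up 23.3% ± 3.67 and 47.7% ± 13.8 of the remaining cells (exact permutation test, adjusted p = 0.00402).

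T cells made up 29.6% to 46.9% of the immune cells in relapse-free mice (median 33.8%) and 6.09% to 45.8% in distal normal mice (median 20.96%). Of the distal normal mice, 10 of 14 lay below the whole relapse-free range and none lay above it. The mean share of T cells was 35.5% ± 6.17 against 21.9% ± 12.3, and 39.7% ± 1.65 in control lungs (exact permutation test, p = 0.0220, adjusted p = 0.0385). The difference had the same sign in the 3 shared batches, at -25.6, -14.1 and -5.09 percentage points for mice 18, 29 and 35 in turn. Permuting the groups within these batches gave p = 0.229, and the T cell share did not pass there (exact permutation test, adjusted p = 0.316).

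NK cells, which kill targets without prior priming, made up 10.8% to 19.5% of the cells in relapse-free mice and 1.07% to 23.4% in distal normal mice, with medians of 13.9% and 8.26%. Here too 10 of 14 distal normal mice lay below the relapse-free range, and mouse 25 lay above it. The means were 14.7% ± 3.40 and 8.48% ± 5.50, beside 17.4% ± 2.20 in control lungs (exact permutation test, p = 0.0192, adjusted p = 0.0385). Within shared batches the gaps were -8.42, -0.637 and -7.11 percentage points. Permuted within these batches, the NK cell share gave p = 0.354 and did not pass (exact permutation test, adjusted p = 0.354).

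B cells, the antibody-producing lineage, ranged from 2.33% to 10.8% in relapse-free mice (median 5.53%) and from 0% to 8.46% in distal normal mice (median 1.75%). No B cell was found in distal normal mice 24, 31, 32 and 33, where counts of 0 among 115, 92, 74 and 77 cells allow shares of up to 2.61%, 3.26%, 4.05% and 3.90%. The means were 6.41% ± 3.52 and 2.27% ± 2.39, with 9.75% ± 1.20 in control lungs (exact permutation test, p = 0.00676, adjusted p = 0.0385). The 3 batch gaps were -3.66, -8.35 and -5.34 percentage points, and permuting the groups within these batches gave p = 0.0208 (exact), the smallest that the 48 within-batch assignments allow, and an adjusted p of 0.146. With so few assignments a single lineage could not have passed the adjustment over 7.

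**Figure D1:**
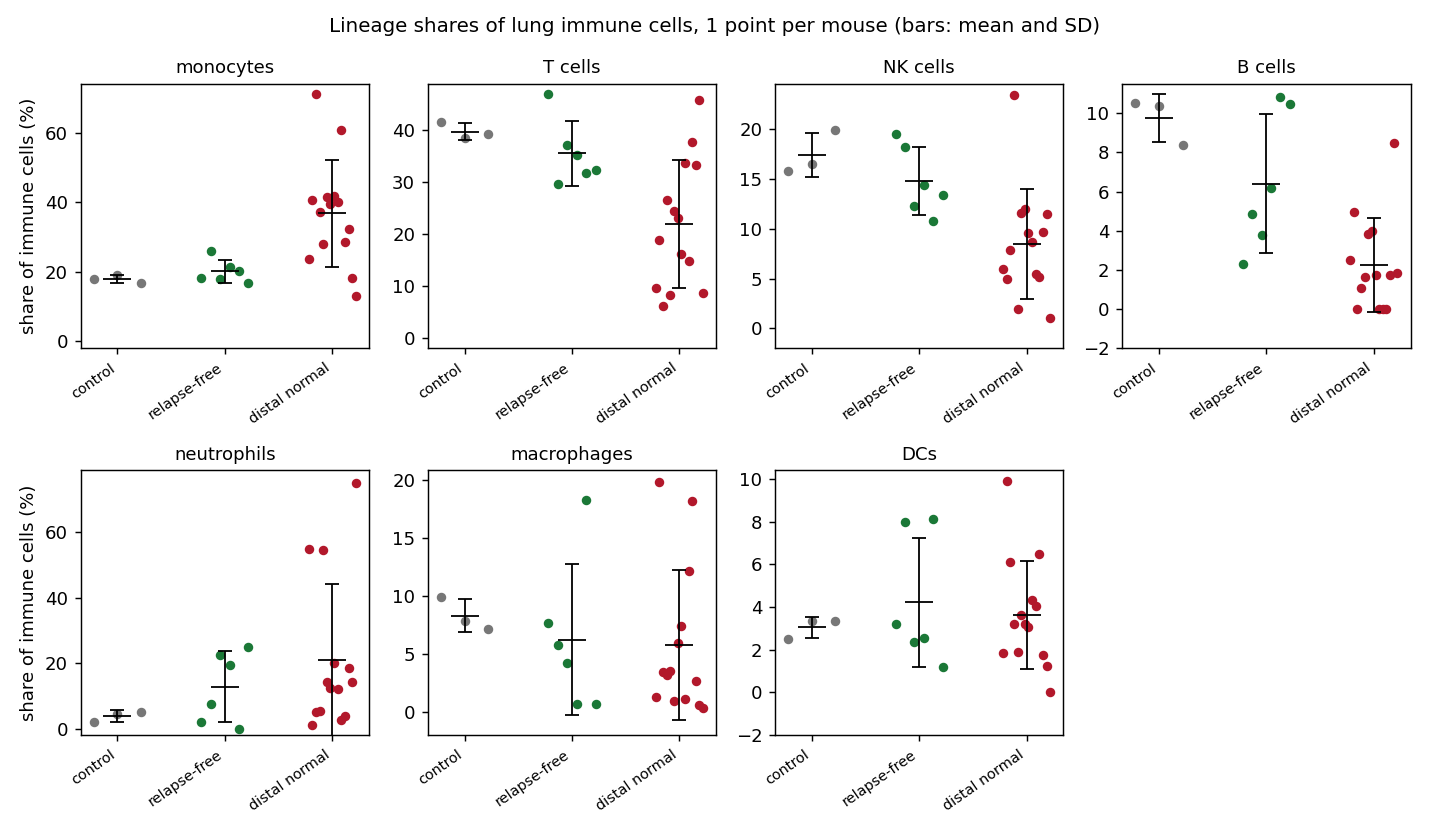
Share of annotated immune cells (%, vertical axes, each panel with its own scale) of the 7 lineages, with 1 point per mouse for 3 control, 6 relapse-free and 14 distal normal mice and bars for the mean and SD. Monocytes sit above the relapse-free range in 11 of 14 distal normal mice, T and NK cells below it in 10 of 14, while neutrophils, macrophages and DCs overlap widely.

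These 4 calls lay close to the threshold. Without relapse-free mice 6 and 7, whose lungs also gave GFP-gated plates, the shares of T cells, NK cells and monocytes differed by -12.2, -4.23 and 17.8 percentage points and none of the 3 passed (exact permutation test, adjusted p = 0.177, 0.279 and 0.133). Leaving out 1 mouse at a time ended the T and NK cell calls in 12 of 20 cases each (relapse-free mice 6, 7, 11, 18 and 35 and distal normal mice 17, 23, 24, 26, 30, 32 and 37), the monocyte call in 10 (the same mice except 17 and 37) and the B cell call in 7 (relapse-free 7, 18 and 35 and distal normal 24, 26, 30 and 32), with no change of sign. Without them the T cell share differed by -14.7 to -11.3 points, NK cells by -6.77 to -5.32, monocytes by 14.1 to 18.0 and B cells by -4.44 to -3.32.

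Neutrophils varied most. Their share was 0%, 2.147%, 7.52%, 19.4%, 22.4% and 25.0% in relapse-free mice 29, 6, 7, 18, 11 and 35, and ran from 0.990% to 75.0% in distal normal mice with a median of 13.3%. In mouse 29 a count of 0 among 148 cells allows a share of up to 2.03%. The groups overlapped (3 of 14 distal normal mice above the relapse-free range; means 12.8% ± 10.9 and 20.999% ± 23.2, with 3.90% ± 1.75 in control lungs; exact permutation test, adjusted p = 0.629). The log2 ratio of neutrophils to T, NK and B cells, with 1 cell added to each side, averaged -2.98 ± 2.16 and -1.14 ± 2.00 (exact permutation test, adjusted p = 0.126). It was 1 of 3 ratios compared, of which 33.3% (1 of 3) passed. Macrophages made up 6.21% ± 6.52 and 5.77% ± 6.46 of the cells and DCs 4.23% ± 3.02 and 3.62% ± 2.53 (exact permutation test, adjusted p = 0.880 and 0.756).

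Plates of the same mouse gave a measure of technical spread. Among 13 mice with at least 2 plates of 50 cells or more, the range between plates of a mouse had a median of 3.25 percentage points for monocytes (highest 9.65), 4.84 for T cells (highest 18.1) and 2.57 for neutrophils (highest 8.18).

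The kind of monocyte present separated the groups most sharply. Mon Ace cells, the nonclassical subset named after Ace, fell as a share of monocytes in distal normal tissue, and Mon Fn1 cells, named after fibronectin 1, rose. Of 26 subpopulations compared within their lineage, 7.69% (2 of 26) passed, and these were the 2.

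Mon Ace cells made up 30% to 50% of the monocytes in relapse-free mice (median 39.5%) and 5.71% to 37.1% in distal normal mice (median 17.0%). Distal normal mice 33 and 36, at 36.4% and 37.1%, overlapped with the relapse-free range, and the other 12 lay below it. The mean was 39.5% ± 7.78 against 18.9% ± 9.83, and 59.0% ± 4.14 in control lungs (exact permutation test, p = 3.35e-04, adjusted p = 0.00872). Mon Fn1 cells made up 35.0% to 48.2% and 31.8% to 87.8% (medians 41.6% and 73.9%), with 12 of 14 distal normal mice above every relapse-free mouse and mice 33 and 36, at 31.8% and 38.8%, again the exceptions. Mouse 33 had 22 monocytes, and the exact 95% binomial interval of its Mon Fn1 share, which covers counting error only, was 13.9% to 54.9%. The means were 41.2% ± 5.28 and 68.8% ± 16.6, and 23.8% ± 0.944 in control lungs (exact permutation test, p = 0.00134, adjusted p = 0.0174).

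The log2 ratio of Mon Fn1 to Mon Ace cells rose from 0.0673 ± 0.412 (n = 6) in relapse-free mice to 1.89 ± 1.08 (n = 14) in distal normal mice, with -1.28 ± 0.152 in 3 control lungs (exact permutation test, p = 0.00129, adjusted p = 0.00387). Relapse-free values ran from -0.502 to 0.462 and distal normal values from -0.170 to 3.33. It was higher in distal normal tissue in all 3 shared batches, by 2.87, 1.81 and 1.59 for mice 18, 29 and 35. The Mon Ace share was lower there by 24.6, 13.3 and 23.3 percentage points, and the Mon Fn1 share higher by 39.3, 35.0 and 21.6. Permuted within these batches, the ratio gave an adjusted p of 0.0938 (exact), where a single one of the 3 ratios could not have passed with the 48 assignments. Without mice 6 and 7 both subpopulation shares kept their size, at -18.4 and 26.7 percentage points, and missed the threshold over the 26 (exact permutation test, adjusted p = 0.0850 for each).

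As a share of all immune cells, computed after seeing the data, the subsets differed in size of change. Mon Fn1 cells made up 5.92% to 9.69% of the immune cells in relapse-free mice and 7.05% to 62.6% in distal normal mice (8.25% ± 1.33 and 26.3% ± 14.7). Mon Ace cells made up 7.96% ± 2.12 and 6.58% ± 3.34. Over all 26 subpopulations on this scale none passed, and the exact permutation test gave p = 0.00766 (adjusted p = 0.141) for Mon Fn1 and p = 0.364 (adjusted p = 0.669) for Mon Ace.

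**Figure D2:**
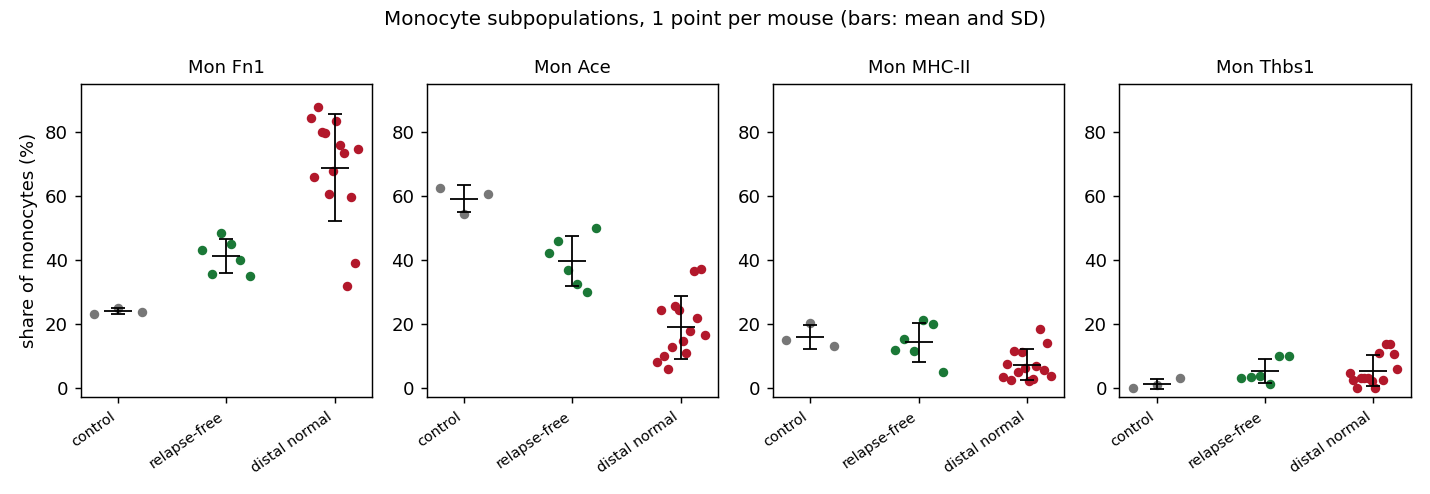
Share of each mouse's monocytes (%, vertical axis) held by the 4 annotated subpopulations, with 1 point per mouse and bars for mean and SD. Distal normal mice lie above the relapse-free mice for Mon Fn1 and below them for Mon Ace in 12 of 14 cases each, and control mice lie beyond the relapse-free mice on the other side.

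The other monocyte subsets did not pass. Mon MHC-II cells, which carry antigen-presenting molecules, made up 14.1% ± 6.05 and 7.06% ± 4.84 of monocytes (p = 0.0128, adjusted p = 0.111, exact permutation test), and passed when relapse-free mouse 35 or distal normal mouse 33 was left out (-8.87 and -7.91 percentage points, adjusted p = 0.0283 and 0.0268). Mon Thbs1 cells, named after thrombospondin 1, made up 5.18% ± 3.82 and 5.28% ± 4.77.

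Among neutrophils, the Neut Lcn2 subset, named after the granule protein lipocalin 2, made up 0% to 41.3% in 5 relapse-free mice with enough neutrophils and 0% to 85.5% in 11 distal normal mice. Of the distal normal mice, 7 of 11 exceeded every relapse-free mouse, and the means of 19.5% ± 15.3 and 51.5% ± 30.3 gave p = 0.0478 and an adjusted p of 0.178 (exact permutation test). Neut Ptgs2 cells, named after the prostaglandin synthase Cox-2, made up 55.4% ± 26.5 and 32.3% ± 23.3, with 80.2% ± 6.95 in control lungs (exact permutation test, adjusted p = 0.276). Neut Ifit3 cells, named after an interferon-induced gene, made up 18.7% ± 16.6 and 11.4% ± 10.6, and Neut Camp cells 2.148% ± 2.28 and 4.73% ± 9.79 (exact permutation test, adjusted p = 0.548 and 0.921). PMN-MDSC-labelled neutrophils numbered 4 cells in relapse-free and 2 in distal normal mice.

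Mac Gpnmb cells, the annotation's regulatory macrophages, numbered 3 of the macrophages in relapse-free mice and 19 in distal normal mice, and were seen in 6 of 7 distal normal mice with at least 5 macrophages. Their share was 0.741% ± 1.66 (n = 5) and 16.1% ± 16.7 (n = 7), with 40.0% in distal normal mice 17 and 23 and none in control lungs (exact permutation test, p = 0.0644, adjusted p = 0.209). The relapse-free mean rests on 1 cell, in mouse 11. The other 2 of the 3 cells came from mouse 35, which had 4 macrophages and so was not in this test. As a share of all immune cells, with every mouse in, Mac Gpnmb cells made up 0.0826% ± 0.140 and 0.945% ± 2.07 (exact permutation test, p = 0.344, adjusted p = 0.669). In mouse 17 this was 4 of 10 cells (exact 95% interval 12.2% to 73.8%) and in mouse 23 8 of 20 (19.1% to 63.9%). Mac Isg20 cells numbered 0 and 7 (0% and 6.17% ± 4.95, adjusted p = 0.178, exact permutation test). Mac Cd9 cells were the main subset in both groups, at 76.1% ± 21.1 and 65.6% ± 23.6, and at 92.6% ± 4.18 in control lungs, and Mac Cd81 cells made up 23.2% ± 21.4 and 12.1% ± 7.22 (exact permutation test, adjusted p = 0.716 and 0.455). Relapse-free mouse 18 had Mac Cd81 cells at 60% of 5 macrophages. Leaving out 1 mouse at a time put the Mac Cd81 difference at -15.1 to -1.86 percentage points.

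Within T cells the composition overlapped. Naive-like T CD4 Lef1 cells, named after a transcription factor of resting T cells, made up 55.0% ± 8.21 and 50.6% ± 9.87. T CD8 Gzmk cells, named after granzyme K, made up 16.2% ± 3.63 and 21.96% ± 9.51 (exact permutation test, adjusted p = 0.617 and 0.405). With only mice holding at least 20 T cells, T CD8 Gzmk passed, at 8.83 percentage points higher in distal normal tissue (exact permutation test, adjusted p = 0.0199). T CD8 Dapl1, T CD8 Gzma, T CD8 Lag3 and T CD4 S100a4 cells differed by 2.28, -3.36, 0.739 and -0.462 points, and Treg cells numbered 4 and 1. Leaving out 1 mouse at a time put T CD8 Gzma at -4.67 to -0.791 and T CD8 Lag3 at 0.159 to 0.989 points. The log2 ratio of T CD8 Gzma and Gzmk cells to T CD4 Lef1 and T CD8 Dapl1 cells was -1.43 ± 0.678 and -1.13 ± 0.652 (exact permutation test, adjusted p = 0.368). The DC and NK cell subsets differed by at most 2.79 percentage points, with adjusted p from 0.921 to 0.980 (exact permutation test).

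**Figure D3:**
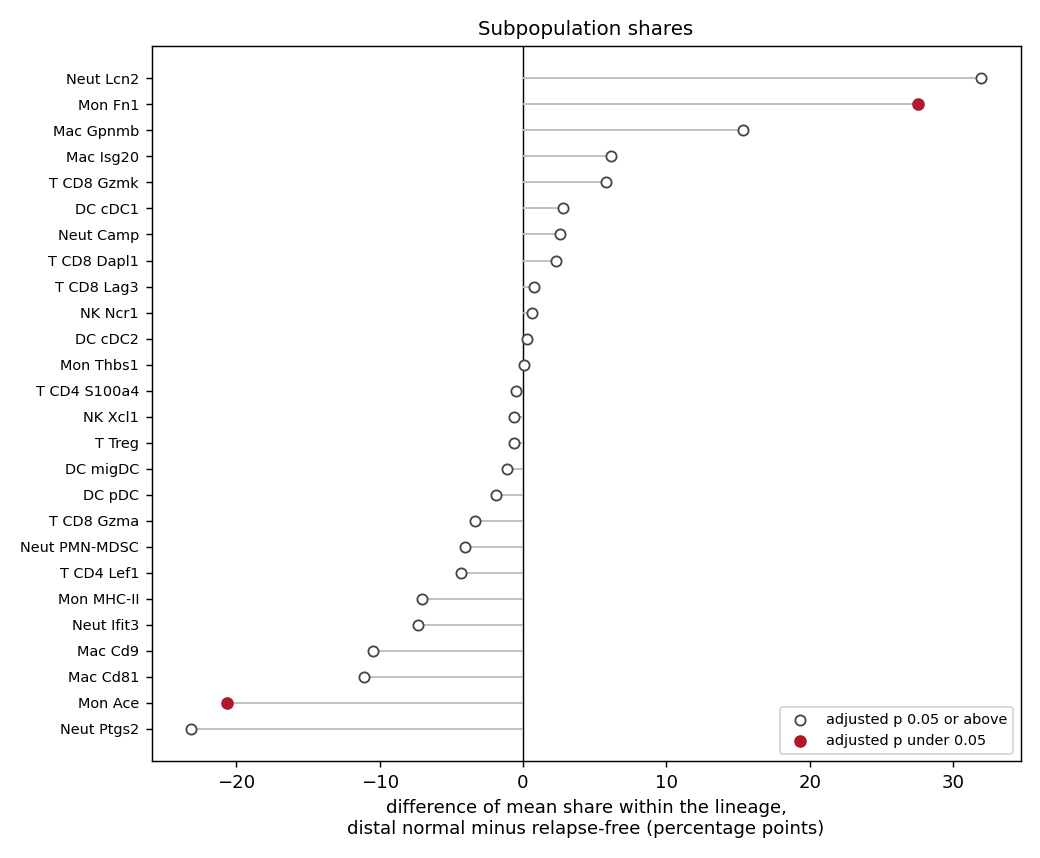
Difference of the mean share within the lineage (distal normal minus relapse-free, percentage points, horizontal axis) for the 26 subpopulations, ordered by size, with filled points for an adjusted p under 0.05. Mon Fn1 (27.6) and Mon Ace (-20.6) are the filled points, and Neut Lcn2 (32.0) has a larger mean difference but a wider spread between mice.

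Expression was compared in UMIs summed per mouse and lineage, for mice with at least 10 cells of it, with edgeR's quasi-likelihood test and Benjamini-Hochberg adjustment over all genes that passed the filter on low counts. Fold changes are log2 of distal normal over relapse-free, with SE, and levels are CPM (counts per 1000000 UMIs of the lineage). Few genes passed an adjusted p of 0.05. In monocytes (6 and 14 mice) they were 10 of 2992 genes (0.334%), in T cells (6 and 13 mice) 5 of 1022 (0.489%), and all of them were lower in distal normal tissue. In neutrophils (5 and 9 mice) edgeR called 0 of 1668 genes (0%, with 91 at an unadjusted p under 0.05 and 1 called by DESeq2), in NK cells (6 and 7 mice) 0 of 1219 (0%, with 58 and 0) and in macrophages (4 and 6 mice) 0 of 470 (0%, with 43 and 4).

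Cd300ld and Fkbp4 stood apart from the other called genes of monocytes, because all 6 relapse-free mice had more of them than nearly all distal normal mice. Such separation was not limited to them. Mmp8 and Aldoa, which did not pass, had 12 of 14 distal normal mice above every relapse-free mouse. How many of all genes tested separate as well was not counted. Both genes were picked by the test of the group difference, so their separation is no separate support. Cd300ld rested on 394 UMIs in the relapse-free and 330 in the distal normal mice together, and Fkbp4 on 312 and 234. All monocyte UMIs numbered 27478 in relapse-free mouse 29 and 16380 in distal normal mouse 33, so levels of single mice can rest on few UMIs. Cd300ld, a receptor of the CD300 family on myeloid cells that lies on chromosome 11 (mm10, 114982274 to 114989922, minus strand), reached 189, 278, 287, 263, 182 and 217 CPM in relapse-free mice 6, 7, 11, 18, 29 and 35. In distal normal mice it ran from 22.2 to 186 CPM with a median of 96.7. Only distal normal mice 33 and 34, at 183 and 186 CPM, reached the lowest relapse-free value, and 12 of 14 lay below all relapse-free mice. The log2 fold change was -1.27 ± 0.286 (edgeR, adjusted p = 0.0309), and control lungs had 344 ± 166 CPM. Relapse-free mice had 495 ± 117 CPM of Cd300ld in Mon Ace cells, a subset whose share of monocytes was lower in distal normal tissue. Fewer such cells and less transcript per cell cannot be told apart in all monocytes, and within Mon Ace cells the log2 fold change was -0.320 ± 0.384. Fkbp4, a co-chaperone of Hsp90 encoded on chromosome 6 (mm10, 128429735 to 128438677, minus strand), reached 126 to 284 CPM in relapse-free mice and 0 to 161 CPM in distal normal mice (medians 226 and 87.2), again with 12 of 14 distal normal mice below all relapse-free mice (log2 fold change -1.40 ± 0.327, edgeR adjusted p = 0.0413). With sequencing batch as a term the differences were -0.846 (edgeR, unadjusted p = 0.0406) and -1.18 (unadjusted p = 0.0116), and neither passed (adjusted p = 0.996 for both). Batches that held 1 group add nothing to these estimates, so of the relapse-free mice only 18, 29 and 35 inform them.

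The other 8 called genes of monocytes differed among the relapse-free mice. In each of them mice 6, 7 and 11, which shared no batch with distal normal mice, lay above mice 18, 29 and 35, which did. Lyz1, the lysozyme of Paneth cells, encoded on chromosome 10 (mm10, 117287797 to 117292868) and a close relative of the myeloid Lyz2, was at 3557 to 5950 CPM in mice 6, 7 and 11, at 446 to 2293 in mice 18, 29 and 35 and at 304 to 2304 in distal normal mice, and control lungs had 2660 ± 413 CPM. Its log2 fold change of -1.67 ± 0.363 (edgeR, adjusted p = 0.0238) became -0.272 without mice 6, 7 and 11 (adjusted p = 0.983), an alternative chosen after seeing the data. Those mice held the highest relapse-free levels of Lyz1, so leaving them out had to shrink the difference and is no separate test. The ribosomal protein genes Rps10, Rps29 and Rpl7 had log2 fold changes of -2.35 ± 0.447, -1.84 ± 0.439 and -1.58 ± 0.359 (edgeR, adjusted p = 0.00623, 0.0486 and 0.0330). Gm12328, Gm13339 and Gm13341, annotated as pseudogenes, and Gm22761, annotated as a miRNA gene, were named here after their values were seen. In T cells the called genes were Rps10 (-1.96 ± 0.392, adjusted p = 0.0105), Rps29 (-1.95 ± 0.426, adjusted p = 0.0203), Gm13339, Gm13341 and Gm29216, and in all 5 the mice 6, 7 and 11 again lay above the other 3.

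These genes share sequence with other genes. Of the 50-base words in the longest transcript (GENCODE M21), 97.1% of those of Gm29216 (chromosome 1, 24615706 to 24616197) also occur in the mitochondrial gene mt-Co1, 36.0% of those of Gm13341 (chromosome 2, 22587291 to 22587962) in mt-Co2, 17.6% of those of Gm13339 in mt-Nd2 and 16.1% of those of Lyz1 in Lyz2. The median over the 2929 genes tested in monocytes that have a sequence was 0%. For Cd300ld and Fkbp4 it was 3.89% and 1.52%. The counting left out reads with several mapping positions, so levels of genes with near copies are uncertain. The mitochondrially encoded genes themselves had median log2 fold changes of -0.193 in monocytes and -0.193 in T cells over 9 genes each, of which 2 and 3 were lower and none higher at an unadjusted p under 0.05. Lower in monocytes were mt-Co2 (-1.03 ± 0.312, edgeR adjusted p = 0.113) and mt-Atp6 (-0.728 ± 0.270, adjusted p = 0.231), and in T cells mt-Co2 (-1.38 ± 0.381) and mt-Atp6 (-0.959 ± 0.257), both with an adjusted p of 0.0905, and mt-Co1 (-0.469 ± 0.217, adjusted p = 0.474). These stand beside the lower mitochondrial share of UMIs in distal normal tissue, and the part of either in these calls was not tested. With sequencing batch as a term, or without mice 6 and 7, edgeR called no gene in monocytes or in T cells. The same held in monocytes without any one of relapse-free mice 6, 7 and 11. Called in monocytes were 97 of 2972 genes without mouse 35 (30 higher and 67 lower in distal normal tissue), 29 of 3427 without mouse 29 (2 and 27) and 26 of 3005 without mouse 18 (0 and 26). A further 2 runs called 22 of 3112 without distal normal mouse 24 (1 and 21) and 18 of 2752 without mouse 17 (0 and 18). In T cells 0 were called without mouse 6, 7, 11, 27, 36 or 37. Called there were 23 of 928 without mouse 35 (4 higher and 19 lower), 12 of 1488 without mouse 29 (1 and 11) and 8 of 821 without mouse 17 (2 and 6). The uniform direction of the calls thus did not hold in every run.

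**Figure D4:**
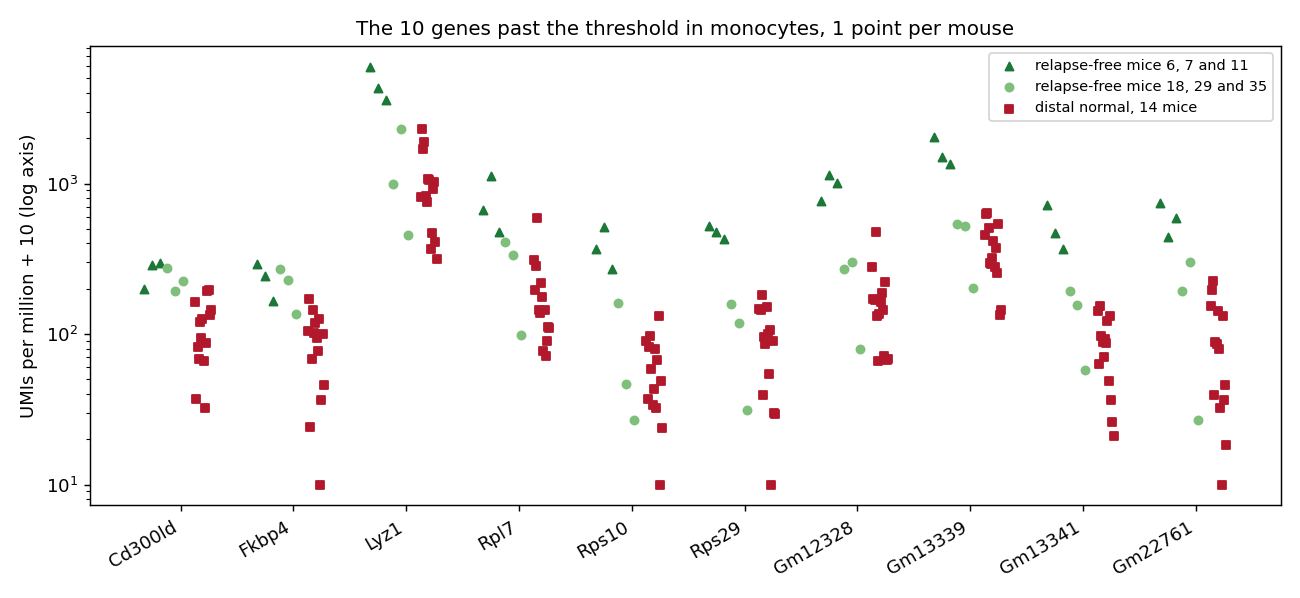
Level in monocytes (CPM plus 10, log axis) of the 10 genes past the threshold, with 1 point per mouse for relapse-free mice 6, 7 and 11 (triangles), relapse-free mice 18, 29 and 35 (circles) and 14 distal normal mice (squares). For Cd300ld and Fkbp4 the triangles and circles mix and all lie above 12 of the 14 squares, and for the other 8 the circles lie below the triangles and among or near the squares.

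Gene groups were described by lists, chosen with earlier results of these data known. Of the 2992 genes of monocytes, 11.5% had an unadjusted p under 0.05, 4.88% higher and 6.58% lower in distal normal tissue, and the median log2 fold change of all was -0.0159. None of the list members named next passed the adjusted test unless stated.

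Genes that mark patrolling monocytes were mostly lower in the monocytes of distal normal tissue. Of 20 genes, 18 passed the filter, 17 had a negative fold change and 7 an unadjusted p under 0.05, with a median log2 fold change of -0.526 and Cd300ld as the 1 called member. Next to it by p were Cd300e, another CD300 receptor (134 ± 66.6 and 36.3 ± 33.7 CPM, -1.78 ± 0.450, edgeR adjusted p = 0.0557), and the fatty acid binding protein gene Fabp4 (137 ± 136 and 42.7 ± 37.5 CPM, -1.61 ± 0.461). The exception was Ace itself, at 166 ± 46.8 CPM in relapse-free and 274 ± 269 CPM in distal normal mice (0.467 ± 0.430). Of 26 inflammatory monocyte genes, 23 passed the filter, with a median of 0.265, and 7 were higher and 2 lower at an unadjusted p under 0.05. Among these were Mmp8, a collagenase of neutrophil granules (52.8 ± 40.7 CPM in relapse-free mice and 222 ± 148 in distal normal mice, log2 fold change 1.81 ± 0.443, adjusted p = 0.0520), and Ly6c2, the gene of the classical monocyte antigen (1131 ± 673 and 2066 ± 406 CPM, 0.816 ± 0.233). Ly6c2 was at 2490 CPM in relapse-free mouse 35, above distal normal mice 36 and 37 of its batch (2228 and 2159 CPM). The other relapse-free mice had 723 to 1012 CPM of it, below every distal normal mouse. The Mon Fn1 and Mon Ace classes were annotated from the same transcripts, so these lists are not independent of the shares.

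MHC class II genes, which present antigen to CD4 T cells, had a median of -0.620 in monocytes, with 5 of 7 members that passed the filter lower at an unadjusted p under 0.05. H2-Ab1 had 2438 ± 1281 CPM in relapse-free mice, 994 ± 923 in distal normal mice and 4148 in control lungs (log2 fold change -1.39 ± 0.406, adjusted p = 0.0944), and H2-Eb1 573 ± 338 and 233 ± 226 CPM (-1.25 ± 0.433). Mon MHC-II cells were annotated from the same transcripts and made up 14.1% and 7.06% of the monocytes, so this list is not independent of the subset shares, and fewer such cells and less transcript per cell cannot be told apart in all monocytes. For MHC class I presentation, 11 of 14 passed the filter, 10 were negative and 3 were lower at an unadjusted p under 0.05 (median -0.257), led by H2-K1 (-0.634 ± 0.212) and H2-D1 (-0.488 ± 0.190). Glycolysis genes had a median of 0.5687, with 8 of 9 positive and 3 higher at an unadjusted p under 0.05, among them aldolase A, Aldoa (248 ± 110 and 519 ± 171 CPM), and pyruvate kinase, Pkm (356 ± 192 and 703 ± 324 CPM). Pkm was highest in distal normal mice 31 to 34, at 1088 to 1099 CPM, whose batch held no relapse-free mouse. The other distal normal mice had 283 to 1026 CPM of it and the relapse-free mice 146 to 693.

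The chemokine list had a median of 0.188, with Ccl2, the ligand of the monocyte receptor Ccr2, at 45.2 ± 26.9 and 98.9 ± 63.5 CPM and Ccr1, a receptor for inflammatory chemokines, at 49.9 ± 40.9 and 99.1 ± 62.9. Alarmins and protease inhibitors had a median of 0.332, with Slpi, a secreted protease inhibitor (1.34 ± 0.375), and Cst3, cystatin C (-0.595 ± 0.196), of opposite sign. Complement and resident macrophage genes had a median of -0.563 over 5 members, with Adgre1, the gene of F4/80 (-0.627 ± 0.239), and Cx3cr1, the fractalkine receptor (-0.802 ± 0.469). Of 37 type I interferon response genes, 22 passed the filter and none had an unadjusted p under 0.05 (median 0.160), and the 2 smallest p were those of Parp14 (-0.673 ± 0.345) and Oasl2 (0.651 ± 0.353). Parp14 was at 655 CPM in relapse-free mouse 6 and at 0 to 232 CPM in the other relapse-free mice. Its log2 fold change ran from -0.868 to -0.168 when 1 mouse at a time was left out. Immediate early genes, which also respond to tissue dissociation, had a median of -0.185 with 3 lower at an unadjusted p under 0.05, led by Klf6 (-0.585 ± 0.238) and Cebpb (-0.549 ± 0.242). Heat shock genes had a median of -0.303, with Hspa8 at -0.693 ± 0.282 and Hsp90ab1 at -0.447 ± 0.213.

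Within Mon Fn1 cells alone (6 and 13 mice) 5 of 1835 genes passed (0.272%), all lower, namely Lyz1 (-1.98 ± 0.374, edgeR adjusted p = 0.00650), Actg1 (-1.39 ± 0.325, adjusted p = 0.0476), Gm12328, Gm13339 and Gm13341, and in all 5 mice 6, 7 and 11 lay above the other relapse-free mice. H2-Ab1 had 264 ± 143 CPM there in relapse-free mice and 81.5 ± 64.1 in distal normal mice (-1.90 ± 0.468, edgeR adjusted p = 0.0571), with relapse-free mice 29 and 35, at 83.3 and 109 CPM, inside the distal normal range of 0 to 222 CPM. It passed at a minimum of 1000 UMIs per cell, with at least 20 cells per mouse, without a filter on low counts and with DESeq2 (adjusted p from 0.00840 to 0.0371, log2 fold change -2.37 to -1.78). It did not pass with batch as a term (-1.39, edgeR unadjusted p = 0.0201, adjusted p = 0.874) or on shared batches with a batch term (-1.32, unadjusted p = 0.0315, adjusted p = 0.946). Nor did it pass without mice 6 and 7 (-1.74, edgeR unadjusted p = 0.00117, adjusted p = 0.602) or without mice 6, 7 and 11 (-1.29, unadjusted p = 0.0362, adjusted p = 0.981). Without relapse-free mice 6, 7 or 11 in turn, 1 of 2589, 0 of 2593 and 1 of 1741 genes were called in Mon Fn1 cells. Without mouse 35, 66 of 1736 were called, 24 higher and 42 lower in distal normal tissue. Fkbp4 was at -1.11 ± 0.439 (adjusted p = 0.292). The filter left different members of a list in each subset, so medians were set side by side over the members that passed in both. Over the 7 shared patrolling genes the median was -0.307 in all monocytes and -0.277 in Mon Fn1 cells, and over the 17 shared with Mon Ace cells it was -0.503 and -0.168. Glycolysis had a median of 0.599 in Mon Fn1 cells, with 7 of 7 members positive. In Mon Ace cells (5 and 8 mice) edgeR called 0 of 834 genes (0%), with 52 at an unadjusted p under 0.05 and 6 called by DESeq2, and Cd300ld was at 495 ± 117 and 405 ± 204 CPM (-0.320 ± 0.384).

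**Figure D5:**
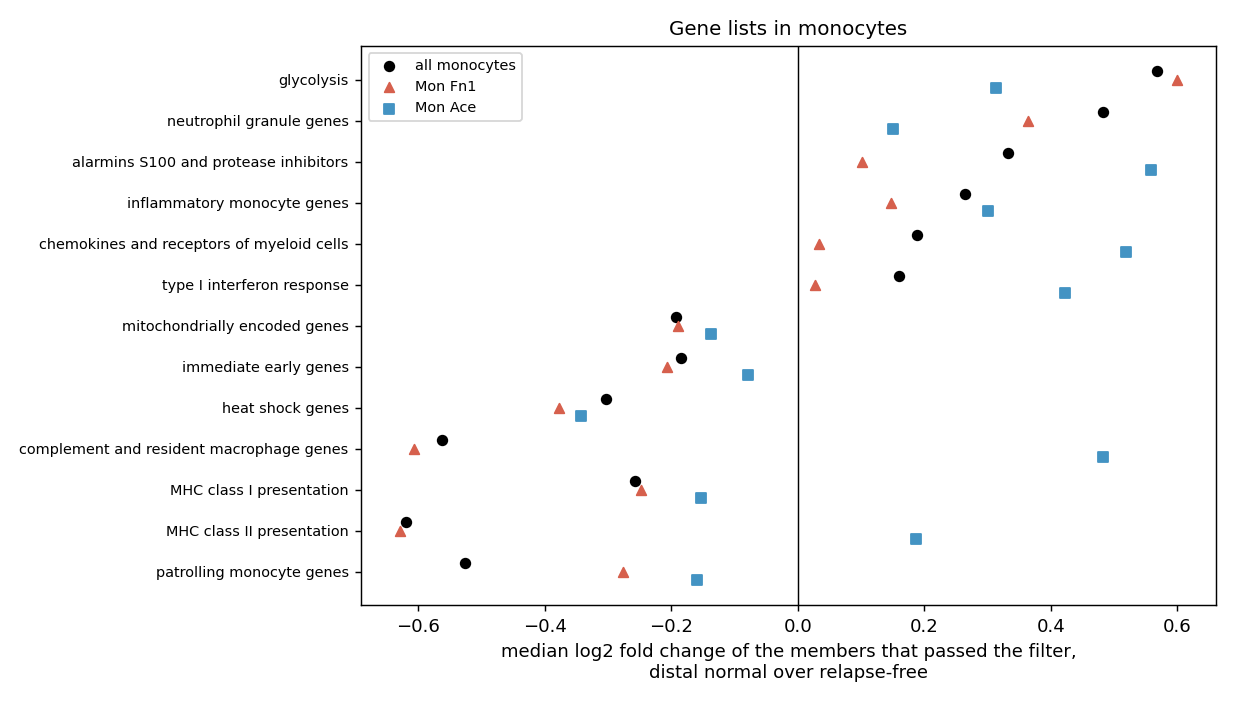
Median log2 fold change (distal normal over relapse-free, horizontal axis) of the members of 13 gene lists that passed the filter on low counts, for all monocytes (circles), Mon Fn1 cells (triangles) and Mon Ace cells (squares). The members differ between the symbols of a list: glycolysis is at 0.5687 over 9 genes, 0.599 over 7 and 0.313 over 4, the patrolling list at -0.526 over 18, -0.277 over 7 and -0.160 over 18, and MHC class II at -0.620 over 7, -0.629 over 3 and 0.187 over 3.

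In neutrophils 5.46% of the genes had an unadjusted p under 0.05, 3.6% higher and 1.86% lower in distal normal tissue, around a median log2 fold change of 0.0604. Granule genes, made as neutrophils mature in the marrow, had a median of 0.851, with 14 of 15 that passed the filter positive and 4 higher at an unadjusted p under 0.05, led by Lcn2 (603 ± 437 and 1839 ± 923 CPM, 1.59 ± 0.462, adjusted p = 0.471) and Retnlg (7192 ± 3146 and 13533 ± 5194 CPM, 1.07 ± 0.411). All 13 alarmins and protease inhibitors that passed were positive (median 0.821), with 4 at an unadjusted p under 0.05, among them BC100530 (2.37 ± 0.794) and Wfdc17 (1.23 ± 0.562). BC100530 was at 0 to 123 CPM in relapse-free and 0 to 691 CPM in distal normal mice, with 3 of 9 distal normal mice above the relapse-free range. Without distal normal mouse 26 its mean there fell from 181 to 117 CPM, without relapse-free mouse 11 the other mean fell from 32.9 to 10.3 CPM, and in both cases the gene no longer passed the filter on low counts. Among genes of aged and inflammatory neutrophils, Cxcr4, the receptor that draws old neutrophils back to the marrow (382 ± 430 and 91.0 ± 81.8 CPM, -1.85 ± 0.636), and Csf1 (-1.44 ± 0.641) had the smallest p, and the list median was -0.0944. Cxcr4 was at 0, 1065, 163, 148 and 536 CPM in relapse-free mice 6, 7, 11, 18 and 35 and at 0 to 220 CPM in distal normal mice, so the groups overlapped. Without mouse 7 its relapse-free mean was 212 CPM and the log2 fold change -1.39 (edgeR, adjusted p = 0.999). Of the type I interferon genes 22 of 24 were positive (median 0.624) and 3 were higher at an unadjusted p under 0.05, led by Slfn5 (1.17 ± 0.515) and Slfn1 (0.913 ± 0.405). Slfn1 was at 71.0 to 351 CPM in relapse-free mice 6, 7 and 11, and at 476 to 909 in mice 18 and 35. Distal normal mice had 523 to 1132 CPM of Slfn1. Relapse-free mice 6 and 7 had 12 and 17 neutrophils. Within the Neut Lcn2 and Neut Ptgs2 subsets edgeR called 0 of 862 (0%) and 0 of 1021 genes (0%), with 52 and 36 at an unadjusted p under 0.05 and 2 and 0 called by DESeq2. The granule list had medians of 0.398 over 11 genes and 0.177 over 10 there, the alarmins 0.529 over 13 and 0.309 over 10, the interferon genes 0.521 over 18 and 0.549 over 20 and the ageing genes 0.0555 over 11 and 0.0514 over 13. The subsets were annotated from the same transcripts, so the lists of all neutrophils are not independent of the subset shares. The mitochondrially encoded genes had a median of -0.553 over 8 in neutrophils, none of them at an unadjusted p under 0.05, and of -0.417 over 4 and -0.623 over 5 in the subsets, and the part of this shift in the other lists was not tested.

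In T cells 9.3% of the genes had an unadjusted p under 0.05, 4.5% higher and 4.79% lower. None of the naive, effector or checkpoint genes did. The medians were 0.0370 over 11 naive and central memory genes, with Tcf7 at 0.511 ± 0.308 and S1pr1, which guides T cells out of lymph nodes, at -0.532 ± 0.384, and -0.0975 over 11 effector genes, with Cxcr6 at 0.578 ± 0.423 and S100a4 at -0.620 ± 0.485. Of 17 checkpoint and activation genes 3 passed the filter, among them Cd69 (-0.160 ± 0.354) and Icos (0.207 ± 0.475). Within T CD4 Lef1 cells 2 of 552 genes passed (0.362%), Gm29216 and mt-Co2, both lower in distal normal tissue and higher in mice 6, 7 and 11 than in the other relapse-free mice. Within T CD8 Gzmk cells edgeR called 0 of 338 genes (0%), with 26 at an unadjusted p under 0.05 and 3 called by DESeq2.

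In NK cells 4.76% of the genes had an unadjusted p under 0.05, 1.56% higher and 3.2% lower. The cytotoxic list had a median of -0.0697 over 20 genes and the maturation and receptor list of -0.00734 over 18. The smallest p in these lists were those of Cst7, an inhibitor of granule proteases (207 ± 128 and 490 ± 324 CPM, 1.12 ± 0.427), and Klrg1, a receptor of mature NK cells (379 ± 152 and 657 ± 427 CPM, 0.871 ± 0.392). The mitochondrially encoded genes had a median of -0.0825 over 9, with 2 lower at an unadjusted p under 0.05.

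In macrophages 9.15% of the genes had an unadjusted p under 0.05, 4.26% higher and 4.89% lower. Genes of regulatory and lipid-associated macrophages had a median of 0.721 over 10 that passed the filter, with 4 higher at an unadjusted p under 0.05, led by the lysosomal protease Ctsb (656 ± 324 and 2227 ± 2129 CPM, 1.89 ± 0.578, adjusted p = 0.189) and osteopontin, Spp1 (453 ± 316 and 1952 ± 3055 CPM, 2.36 ± 0.839). Spp1 was at 599, 809, 92.5 and 309 CPM in relapse-free mice 6, 7, 11 and 29, and at 7852, 113, 501, 2716, 448 and 78.4 in distal normal mice 17, 23, 26, 28, 30 and 33. The medians of 454 and 475 were close, and 2 of 6 distal normal mice lay above the relapse-free range and 1 below it. Without distal normal mouse 17, whose Ctsb level was 6180 CPM, the distal normal means were 772 CPM for Spp1 and 1437 for Ctsb and the log2 fold changes 0.874 and 1.08 (edgeR, adjusted p = 0.904 and 0.499). Alveolar macrophage genes had a median of -0.296 over 15, with 2 lower at an unadjusted p under 0.05, Krt19 (-1.53 ± 0.617) and the cholesterol exporter Abcg1 (1268 ± 412 and 655 ± 252 CPM, -0.882 ± 0.404). MHC class II genes had a median of -0.614 over 6, led by H2-Eb1 (-1.07 ± 0.483) and H2-DMa (-1.43 ± 0.652). Without distal normal mouse 30 the log2 fold changes of Krt19 and H2-DMa were -2.36 and -2.51 (edgeR, adjusted p = 0.0877 and 0.0912). With sequencing batch as a term the log2 fold change of Krt19 changed sign, to 0.805. Krt19 was at 530 to 1295 CPM in relapse-free mice 6, 7 and 11 and at 232 CPM in mouse 29, beside a distal normal median of 220 CPM. H2-DMa rested on 23 UMIs in the 6 distal normal mice together. Within Mac Cd9 cells edgeR called 0 of 397 genes (0%), with 22 at an unadjusted p under 0.05 and 0 called by DESeq2. There the alveolar list had a median of 0.0211 over 15 genes, 9 of them positive, the regulatory list 0.350 over 7 and MHC class II -0.666 over 2, and no member of the 3 lists had an unadjusted p under 0.05. These subsets too were annotated from the same transcripts as the lists use. All 9 mitochondrially encoded genes that passed the filter had a negative fold change in macrophages (median -0.621), with 3 lower at an unadjusted p under 0.05, led by mt-Co2 (2694 ± 1105 and 1151 ± 396 CPM, -1.21 ± 0.377, edgeR adjusted p = 0.189), and in Mac Cd9 cells 8 of 9 were negative (median -0.631). The part of this shift in the macrophage lists was not tested.

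Transcripts that mark other cells were present in both groups. In monocytes the summed level of 9 T cell markers was 21.4 to 130 CPM in relapse-free and 0 to 61.0 CPM in distal normal mice, and that of 10 neutrophil markers 233 to 3566 and 256 to 5014 CPM. The 13 lung epithelium markers summed to 648 to 6139 and 512 to 2572 CPM, and this list contains Lyz1. In T cells the neutrophil markers summed to 127 to 3344 and 139 to 4554 CPM, and the erythroid markers to 0 to 469 and 0 to 1453 CPM. Their part in the results was not tested.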

How the data were processed

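Immune cells of 20 mice were compared, 6 relapse-free and 14 with distal normal tissue, with 3 control mice as background. Per the labels and the study's methods, the authors mapped reads to mm10, dropped reads with multiple mapping positions, assigned the rest to exons and deposited raw UMI counts per gene and well. The submitters' processing notes name bcl2fastq 2.15.0.4. Lineages and subpopulations came from the authors' deposited annotation, in which every annotated cell had at least 500 UMIs. Per the labels, doublets and dead cells were gated out at the sort, and no doublet caller was run here. Cells annotated as erythrocytes, outliers or tumor were left out, and GFP-gated plates of mice 6 and 7 entered an alternative only.

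Here, shares were computed per mouse (subpopulations with at least 5 cells of the lineage) and tested with an exact two-sided permutation test over all assignments of the mice that entered (38760 where all 20 did, 18564 for NK cell, 5005 for DC, 4368 for neutrophil and 792 for macrophage subsets), adjusted over 7 lineages, 26 subpopulations or 3 ratios. UMIs were summed per mouse and lineage (at least 10 cells) and tested with edgeR 4.0.16 in R 4.3.3 (TMM scaling, filterByExpr, quasi-likelihood F test), with DESeq2 1.42.0 as an alternative. The SE is the absolute fold change over the square root of F. Median log2 fold changes of all genes were -0.0159, 0.0604, -0.00329, -0.0179 and 0.0620 in monocytes, neutrophils, T cells, NK cells and macrophages. In simulated counts with 200 changed genes, 97.3% of 4-fold and 39.3% of 2-fold changes were recovered for monocytes, and 75.3% and 9.52% for neutrophils. These percentages leave out changed genes that were lost to the filter on low counts. That filter kept 2684 of 2992 genes for monocytes and 1528 of 1668 for neutrophils. Recovery with fewer changed genes was not tested. Named genes were called genes with a mean of at least 100 CPM (8 largest rises and falls per lineage, 5 per subpopulation, unnamed gene models left out) and, per list, called members or those with the smallest p. The members, lists and comparisons were chosen with earlier results of these data known. The labels do not say that mice within a group were raised or sorted independently, so the p-values apply to these mice only. The permutation tests over all mice treat them as exchangeable across sequencing batches, some of which held a single group. The main edgeR fits had no batch term either. Intervals and limits of a count of 0 cover counting error only.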

Additional observations from a re-analysis of the deposited data

Results flagged for a closer look

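Among 35 relapse-free shares and ratios tested with Dixon's test for a sample far from the others (5 or 6 mice; chance flags about 1 in 20 such groups), 4 were picked out. In relapse-free mouse 11, Mac Gpnmb cells made up 3.70% of 27 macrophages, which was 1 cell, and the other 4 mice with at least 5 macrophages had none. With none in the others, any such cell had to be flagged. Mouse 35, with 2 such cells among 4 macrophages, was below that minimum and did not enter. In relapse-free mouse 29, NK Ncr1 cells made up 87.5% and NK Xcl1 cells 12.5% of 16 NK cells, beside 95.1% to 99.1% and 0.935% to 4.88% in the other 5 mice. The NK shares are complements of each other, so these are not separate flags. In relapse-free mouse 7, T CD4 Lef1 cells made up 38.8% of 67 T cells, beside 56.1% to 62.3% in the other 5. The distal normal group was too large for this test where all 14 mice entered.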

How the results depend on the processing

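No paired analysis was possible because no mouse gave both a relapse-free and a distal normal sample and the replicate numbers only count the plates of a group. The shift from Mon Ace to Mon Fn1 cells kept its direction in every alternative run, and the log2 ratio of the subsets passed in each except within shared batches. There the 48 assignments (smallest p 0.0208, exact permutation test) do not let a single lineage, subpopulation or ratio pass the adjustment. The unadjusted p there was 0.0208 for B cells and for Mon Fn1 cells (exact permutation test), so their missing calls say nothing about stability. It was 0.188 for monocytes, 0.229 for T cells and 0.354 for NK cells (exact permutation test), so those 3 calls were lost by more than this limit. Of 162 alternatives for 23 main values and counts, 99 left the result on the same side with the same direction or a like count. The cause of the changes below was not tested. The small number of cells per mouse (74 at the lowest) and the 3 relapse-free mice in shared batches limit the precision.

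Without mice 6 and 7 the shares differed by -12.2 percentage points for T cells, -4.23 for NK cells, 17.8 for monocytes, 0.0714 for DCs, -12.8 for DC cDC2, 0.887 for DC migDC, -0.906 for Mon Thbs1 and 0.0912 for T CD4 S100a4, the T cell, NK cell and monocyte calls were lost, and 0 subpopulations were called. With at least 100 immune cells per mouse they differed by -16.1 for T cells, -3.33 for B cells, 14.9 for monocytes, -0.737 for Mon Thbs1, -0.0215 for NK Ncr1, 0.0215 for NK Xcl1 and 1.09 for T CD4 S100a4, and the T cell, B cell and monocyte calls were lost (exact permutation test, adjusted p = 0.0516, 0.0662 and 0.0662). Within shared batches they differed by -13.98 for T cells, -4.66 for NK cells, -6.22 for B cells, 9.79 for monocytes, -3.43 for DC cDC1, -4.08 for DC cDC2, 6.41 for DC migDC, 1.10 for DC pDC, -3.31 for Mon Thbs1, -0.188 for Neut Camp, 2.37 for T CD4 S100a4 and 2.62 for T CD8 Gzma, the log2 ratio of Mon Fn1 to Mon Ace by 1.998, and 0 subpopulations were called. With the GFP-negative gated plates added they differed by 0.211 for DCs, 0.202 for macrophages, -1.87 for DC cDC2, -0.101 for Mon Thbs1 and 0.131 for T CD4 S100a4. At 1000 UMIs per cell they differed by -6.65 for DC cDC2, 1.79 for DC migDC, 0.144 for Mac Cd81, -2.23 for Neut Camp, 0.362 for T CD4 S100a4, 2.99 for T CD8 Gzma and -2.83 for T CD8 Lag3, and the log2 ratio of neutrophils to lymphocytes by 2.20, which then passed. With at least 20 cells of the lineage they differed by -0.476 for NK Ncr1 and 0.476 for NK Xcl1. Among alternatives chosen after seeing the data, macrophages differed by 0.0466 with neutrophils left out of the denominator, and as a share of all immune cells DC cDC1 differed by -0.460, NK Ncr1 by -5.92, T CD8 Dapl1 by -0.350, T CD8 Gzmk by -0.486 and T CD8 Lag3 by -0.172, with 0 subpopulations called.

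DESeq2 called 36 genes in monocytes, 1 in neutrophils, 11 in T cells, 4 in macrophages, 16 in Mon Fn1, 6 in Mon Ace, 2 in Neut Lcn2, 10 in T CD4 Lef1 and 3 in T CD8 Gzmk. Without a filter on low counts edgeR called 241 in monocytes, 15 in neutrophils, 18 in T cells, 3 in NK cells, 7 in macrophages, 132 in Mon Fn1, 5 in Mon Ace, 4 in Neut Ptgs2, 36 in T CD4 Lef1 and 5 in T CD8 Gzmk. That fit tested every gene with a UMI, and so more genes than the main fit. The fits with DESeq2, with RLE scaling and with a batch term started from the genes of the main fit. These were 2992 in monocytes, 1668 in neutrophils, 1022 in T cells, 470 in macrophages, 1835 in Mon Fn1, 834 in Mon Ace, 862 in Neut Lcn2, 552 in T CD4 Lef1 and 338 in T CD8 Gzmk. The other fits changed the cells, the mice or the filter, so their counts cannot be compared as shares. At 1000 UMIs per cell edgeR called 32 in monocytes, 18 in Mon Fn1 and 0 in T cells and T CD4 Lef1, with at least 20 cells per mouse 14 in Mon Fn1 and 0 in T CD4 Lef1, and with RLE scaling 0 in T CD4 Lef1. With sequencing batch as a term, and without mice 6 and 7, it called 0 in monocytes, T cells, Mon Fn1 and T CD4 Lef1. Of the fits chosen after seeing the data, the one without mice 6, 7 and 11 called 1 in neutrophils and 0 in those 4 units, and the one on shared batches with a batch term called 4 in Mon Ace and 0 in those 4 units.

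Single genes changed sign in a few alternatives. With batch as a term, and on shared batches with that term, the log2 fold change was 0.402 and 0.456 for Parp14 and 0.0204 and 0.0684 for Hspa8 in monocytes, -0.383 and -0.386 for Icos in T cells, and 0.0276 and 0.0274 for Cd300ld in Mon Ace cells. It was -0.187 for Icos without a filter, -0.0734 for Tcf7 and 0.229 for Cd69 at 1000 UMIs per cell, 0.805 for Krt19 in macrophages with batch as a term and 0.109 for Actg1 in Mon Fn1 cells without mice 6, 7 and 11.

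Leaving out 1 mouse at a time, the shares differed by -15.4 to -11.3 percentage points for T cells, -7.42 to -5.32 for NK cells, -4.95 to -3.26 for B cells, 14.1 to 18.6 for monocytes, -1.22 to 0.166 for DCs, -1.56 to 1.96 for macrophages, -2.55 to 7.01 for DC cDC1, -6.64 to 5.42 for DC cDC2, -3.51 to 1.90 for DC migDC, -0.684 to 1.07 for Mon Thbs1, -1.07 to 1.64 for NK Ncr1, -1.64 to 1.07 for NK Xcl1, -0.279 to 3.51 for Neut Camp and -2.23 to 0.607 for T CD4 S100a4, and Cd69 in T cells by -0.324 to 0.0440 on the log2 scale. The number of called genes ran from 0 to 97 in monocytes, 0 to 1 in neutrophils, 0 to 23 in T cells, 0 to 10 in NK cells, 0 to 6 in macrophages, 0 to 66 in Mon Fn1, 0 to 9 in Mon Ace, 0 to 1 in Neut Lcn2, 0 to 17 in T CD4 Lef1 and 0 to 11 in T CD8 Gzmk. The number tested moved too, from 2735 to 3427 genes in monocytes and from 655 to 2722 in neutrophils, so these counts cannot be compared as shares.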
